A study of Mus musculus with 12 samples.

Results

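The genes described here encode the proteins of the cytosolic ribosome, measured in mouse liver. A gene was taken when its symbol in the array's probe annotation was Rpl or Rps followed by a digit, Rplp0, Rplp1, Rplp2 or Rpsa, and kinases of the Rps6k family and pseudogene symbols were left out. This gave 63 of the 19938 genes that have a probe set with 1 gene symbol. Of these, 38 carry a large-subunit symbol and 25 a small-subunit symbol. The symbols are of 3 kinds. There were 54 core ribosomal proteins, 33 of the large and 21 of the small subunit. A further 7 were near copies of a ribosomal protein (Rpl3l, Rpl7l1, Rpl10l, Rpl32l, Rpl39l, Rps4l and Rps27l). The other 2 were not classed as ribosomal proteins: Rps19bp1, whose product binds Rps19, and Rps23rg1, a retroposed gene derived from Rps23. The symbol rule matches 89 protein-coding genes in the RefSeq table for assembly GRCm38.p6, and 27 of them were not covered by a probe set with a single symbol, 20 of these being on probe sets shared by several symbols. Rpl11, Rpl13a, Rps27a and Rps24 are among those not covered and are not analysed here.

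The livers came from 12 male C57BL/6J mice, 3 per group. First-generation (G1) mTERT KO mice lacked the telomerase reverse transcriptase and were set against mTERT WT littermates. G1 mTR KO mice lacked the telomerase RNA, the template for telomere synthesis, and were set against mTR WT littermates. Each group's arrays are numbered 1, 2 and 3 in the sample titles, and the design text describes sets of age- and sex-matched littermates without giving ages. The number was read as the littermate set within a line, and what it marks across the lines is not stated. Each sample has 1 array, so the spread between replicates covers animal, dissection and array together. Total RNA was extracted with Trizol, cleaned on RNeasy columns, amplified in 1 round from random primers with a T7 promoter, labelled with biotin and hybridised to 1-colour Affymetrix arrays. Values below are log2 intensities as deposited.

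The Tert probe set read 3.95, 4.07 and 4.15 in mTERT KO livers against 4.13, 4.78 and 4.83 in mTERT WT livers, and the Terc probe set read 4.33, 4.18 and 3.87 in mTR KO livers against 4.12, 4.24 and 4.22 in mTR WT livers. Most of these lie under the background level of 4.34, so Terc does not check the labels and Tert does so only in part. The array medians lay between 4.37 and 4.43. The 11 hepatocyte markers on the array averaged 12.30 to 12.61 in every liver. Genes of other tissues stood apart in some arrays. For 17 pancreatic acinar genes the mean level reached 9.25 (mTERT KO 1), 7.01 (mTERT WT 1), 8.49 (mTERT WT 2), 10.73 (mTR KO 1) and 6.63 (mTR WT 2), with 3.84 to 4.03 in the 7 remaining livers. For 16 skeletal muscle genes it reached 6.81 and 6.54 (mTERT WT 1 and mTERT WT 3), with 3.89 to 4.52 in the 10 remaining livers. For 8 Kupffer cell genes it was 7.97 and 7.999 in mTERT KO 3 and mTERT WT 3, with 7.02 to 7.55 in the 10 remaining livers, and for 8 endothelial genes it was 7.24 to 7.73 over all arrays. The number of members called, and where stated the median difference, were also computed without the pancreas and without the muscle arrays. Counts of arrays that do not overlap and counts by subunit rest on all 12.

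A ribosome joins a small subunit, which reads the mRNA, to a large subunit, which forms the peptide bond, and its proteins are made in matched amounts. Transcripts of these proteins begin with a run of pyrimidines (the 5' terminal oligopyrimidine tract) through which mTORC1 and LARP1 set their translation, and several of their introns carry small nucleolar RNAs (snoRNAs) that guide modification of ribosomal RNA. In liver, an organ that exports much protein, they are highly expressed. The 3 members with a mean below the background level of 4.34 (the 95th percentile of olfactory receptor probe sets) were Rpl12, Rpl39l and Rpl3l, a form known from muscle. The annotation lists a RefSeq mRNA for the probe sets of 59 of the 63 members, but not for those of Rpl12, Rplp2, Rps3a1 and Rps4l. Whether these read the gene's mRNA was not tested, so the low value of Rpl12 may not be the level of its transcript. Rpl3l stood at 3.91, 3.47 and 3.83 in mTERT WT livers 1, 2 and 3 and between 3.38 and 3.62 in the other 9 livers. It was under the filter on dim probe sets, so 62 of the 63 members were tested.

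The knock-outs were compared with their littermate groups first. No ribosomal protein gene was called, that is passed the test (limma, Benjamini-Hochberg over 20197 probe sets, adjusted p under 0.05) in mTERT KO against mTERT WT livers, or in mTR KO against mTR WT livers. The background was the same, 0.0% of all probe sets in each comparison, and no member had an unadjusted p under 0.05, against 283 and 195 probe sets in all. In simulated data, the mTERT KO comparison called 0.0% of probe sets changed by a log2 of 0.5, and 84.0% of those changed by 1.0. The median log2 difference of the members was 0.07 for mTERT KO minus WT, with 47 of 62 above 0, and -0.003 for mTR KO minus WT, with 29 of 62 above 0. The same median over all probe sets was 0.01 and -0.01. In the mTERT line the direction rested on 1 array: without mTERT WT 2 the median was -0.013, with 29 of 62 above 0. It was 0.09 without the pancreas arrays (48 above 0) and 0.15 without the muscle arrays (54 above 0). In the mTR line it was -0.01 without the pancreas arrays (28 above 0). In bulk tissue, fewer cells of a type and less RNA per cell cannot be told apart.

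Both subunits gave the same picture. The median level of the 33 core large-subunit genes averaged 9.91 ± 0.15 in mTERT KO livers against 9.79 ± 0.19 in mTERT WT livers, and 9.92 ± 0.15 in mTR KO livers against 9.94 ± 0.10 in mTR WT livers (SD, n = 3 each). For the 21 core small-subunit genes mTERT KO livers had 9.18 ± 0.09 against 9.13 ± 0.17 for mTERT WT, while mTR KO livers had 9.19 ± 0.07 against 9.23 ± 0.06 for mTR WT. Each difference is smaller than the larger SD of its pair. The 95% interval of the difference lay within a 2-fold change in either direction for 60 of 62 members in the mTERT line and 61 of 62 in the mTR line. Rpl37a had the widest interval in both. These intervals come from a fit of group means alone, so they include the spread between title numbers described below. For Rpl37a, the gene with the largest difference by number, the SD within a group was 0.675 to 0.755.

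**Figure D1:**
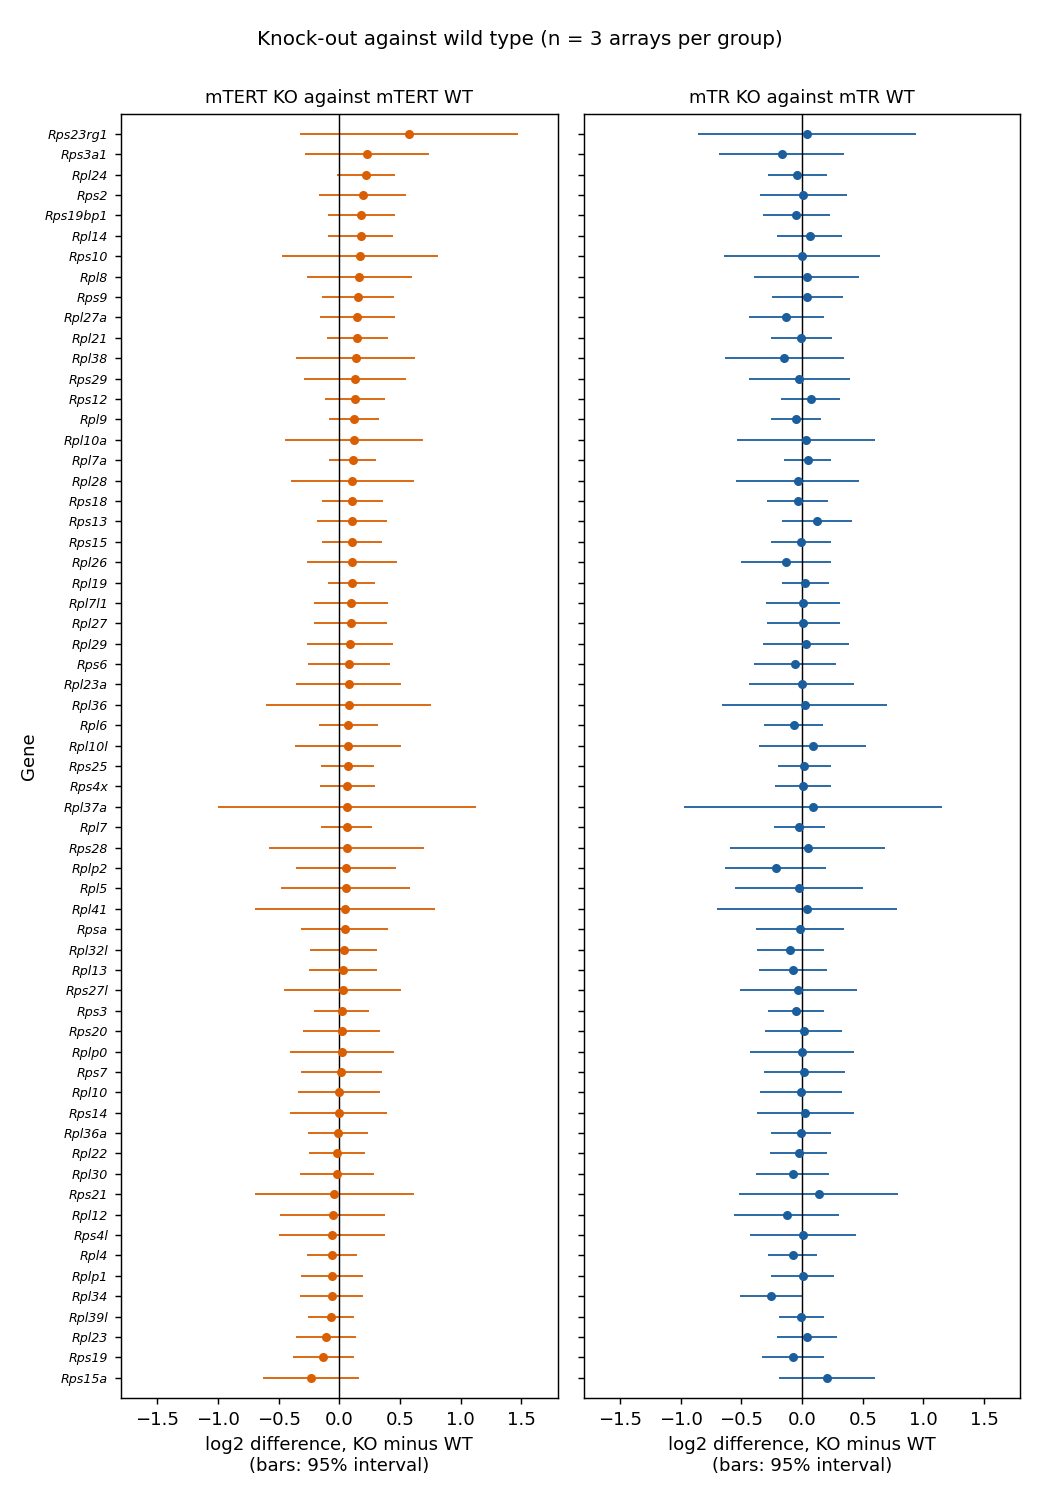
Log2 difference between KO and WT livers (horizontal axis) of the 62 tested members (rows, ordered by the mTERT line), with the 95% interval from limma as bars, n = 3 arrays per group; mTERT line left, mTR line right. All 62 intervals include 0 in both panels, and 47 points lie above 0 in the mTERT line against 29 in the mTR line.

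The members nearest to a difference in the mTERT line were these. Rpl24, a large-subunit protein whose mutation causes the belly spot and tail mouse, measured 10.25, 10.47 and 10.37 in mTERT KO livers against 10.01, 10.31 and 10.12 in mTERT WT livers. It was higher in the KO at each of the 3 title numbers, by 0.22 (SE 0.11), with an adjusted p of 1.0 by limma. Rps19bp1 differed by 0.18 (SE 0.13) and Rpl14 by 0.18 (SE 0.12). On the other side, Rps15a measured 7.12, 6.85 and 7.11 in mTERT KO livers against 7.58, 7.07 and 7.13 in mTERT WT livers, a difference of -0.23 (SE 0.18). Rps19, the protein most often mutated in Diamond-Blackfan anaemia, differed by -0.13 (SE 0.12) and Rpl23 by -0.11 (SE 0.11). The KO and WT values of all 6 genes overlap between groups.

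In the mTR line, Rps15a had the opposite sign. It measured 7.40, 6.78 and 7.15 in mTR KO livers against 6.98, 7.03 and 6.71 in mTR WT livers, a difference of 0.20 (SE 0.18). Its difference between the lines, mTR KO effect minus mTERT KO effect, was 0.44 (95% interval -0.12 to 0.99, adjusted p = 1.00 by limma). Rpl34 measured 7.05, 7.20 and 7.002 in mTR KO livers against 7.28, 7.49 and 7.24 in mTR WT livers. Its groups do not overlap, with a difference of -0.26 (SE 0.12) and an adjusted p of 1.0 by limma. Rpl34 was the single member with non-overlapping groups in that line, 1.61% of the members against 2.64% of all probe sets lower without overlap, and no member was higher without overlap, against 1.84%. In the mTERT line the single such member among those tested was Rpl39l, at background level and lower in the KO, 1.61% against 1.86% of all probe sets, with none higher, against 2.47%. Rpl3l, not tested, read 3.42, 3.38 and 3.39 in mTERT KO livers against 3.91, 3.47 and 3.83 in mTERT WT livers, without overlap and all under the background level. Rps13 and Rps12 differed by 0.12 (SE 0.13) and 0.07 (SE 0.11) in the mTR line, and Rplp2 and Rpl27a by -0.22 (SE 0.19) and -0.13 (SE 0.14).

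The mean of both KO effects and the difference between them called no member either (background 0.0% in both, 143 and 293 probe sets with an unadjusted p under 0.05). The median of the mean effect was 0.03, with 42 of 62 members above 0, and it was -0.017 without mTERT WT 2, with 28 above 0. That of the difference, mTR minus mTERT, was -0.07, with 13 of 62 above 0 (-0.02 and 25 of 62 without mTERT WT 2). Those comparisons share their arrays with the ones above, so their signs are not separate evidence.

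Between the wild types of the lines no member was called. mTR WT livers were above mTERT WT livers for 59 of 62 members, with a median log2 difference of 0.11 against 0.01 over all probe sets, and the background was 0.0% (525 probe sets with an unadjusted p under 0.05). The largest differences by p were in Rpl26, with 7.38, 7.17 and 7.10 in mTR WT livers against 7.30, 6.66 and 6.75 in mTERT WT livers (difference 0.31, SE 0.17), Rps23rg1 (0.72, SE 0.41) and Rpl7 (0.17, SE 0.10). Rps15a (-0.35, SE 0.18), Rpl30 (-0.11, SE 0.14) and Rpl23 (-0.03, SE 0.11) were the 3 members with the other sign. The mTERT WT 2 and mTERT WT 3 arrays were low: 8 and 13 of the 54 core members stood above their own 12-array mean there, while mTERT WT 1 had 34. In mTR WT 1, 2 and 3 the number was 33, 37 and 30. The mitochondrial ribosomal protein genes, whose products form a separate ribosome, had 65 of 77 above 0 and a median of 0.11 in the same comparison. Leaving out 1 array moved the members' median between 0.05, without mTERT WT 2 (39 of 62 above 0), and 0.19, without mTERT WT 1 (58 of 62). It was 0.15 without the pancreas arrays (48 of 62) and 0.22 without the muscle arrays (55 of 62).

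The members were then compared by title number, a contrast that crosses all 4 groups. Arrays numbered 1 differed from arrays numbered 2 and 3 at 33 of the 62 members (53.2%, background 38.8%), with group kept as a term in the limma fit. Of these, 21 were higher at number 1 (33.9%, background 17.5%) and 12 lower (19.4%, background 21.3%). All 33 had the same sign in each of the 4 groups, whose arrays the call itself used. The changes were mostly small: 7 higher members and 1 lower member reached 1.5-fold. The lower one was Rps23rg1, which is not classed as a ribosomal protein. The largest difference among the lower core members was -0.57, in Rpl5, short of 1.5-fold. The median log2 difference was 0.04, against -0.02 over all probe sets, with 36 of 62 members above 0. It was 0.005 without mTERT WT 1, with 31 above 0.

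**Figure D2:**
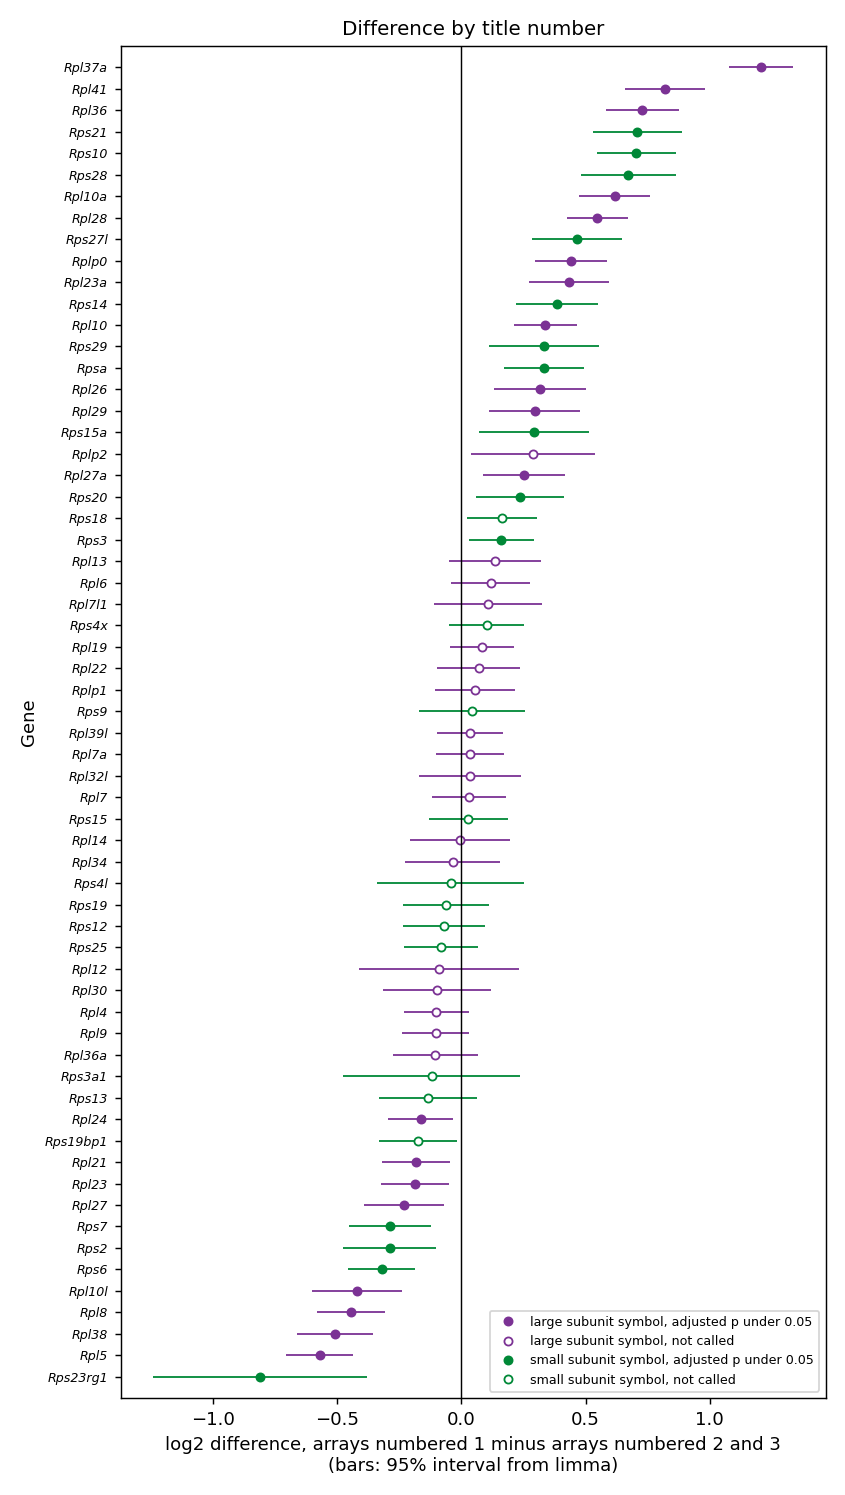
Log2 difference between the 4 arrays numbered 1 and the 8 arrays numbered 2 and 3 (horizontal axis) for the 62 tested members (rows), with the 95% interval from limma; filled points have an adjusted p under 0.05, and colours separate large from small subunit symbols. Filled points lie on both sides of 0, 21 to the right and 12 to the left, and both subunits are on both sides.

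By symbol, the large subunit had 11 higher and 8 lower of 37 tested members, and the small subunit 10 higher and 4 lower of 25. Core members alone had 11 higher (33.3%) and 7 lower (21.2%) of 33 in the large subunit. In the small subunit they had 9 higher (42.9%) and 3 lower (14.3%) of 21. The 54 core members had 20 higher and 10 lower. Values of the 4 arrays numbered 1 lay entirely above the other 8 for 16 members (25.8%, background 10.4%) and entirely below for 7 (11.3%, background 12.6%). Bright probe sets were called more often on the whole array: among those with a mean of at least 8, 28 of 43 members passed, 18 of them (41.9%) higher and 10 (23.3%) lower, against 52.5% of all such probe sets, 19.1% of them higher and 33.4% lower.

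The promoters of the called core members with the largest differences are shown because transcripts of this family share a pyrimidine start. They are the 5 largest among the higher and the 3 largest among the lower members that have a promoter in the table. Each line has 40 bases before and 20 from the annotated start, in RefSeq's sequence of build GRCm38.p6 on the gene's strand, and capitals mark the longest stretch of C and T that touches the 3 bases on either side of the start. The first 5 belong to members higher at number 1, and the last 3 to members lower there.
Rpl37a, chr1:72711220-72711279, plus strand: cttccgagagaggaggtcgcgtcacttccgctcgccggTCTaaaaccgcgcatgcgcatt
Rpl41, chr10:128549149-128549208, minus strand: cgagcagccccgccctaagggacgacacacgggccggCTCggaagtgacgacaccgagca
Rps21, chr2:180257339-180257398, plus strand: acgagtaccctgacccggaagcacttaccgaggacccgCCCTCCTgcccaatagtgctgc
Rps10, chr17:27635225-27635284, minus strand: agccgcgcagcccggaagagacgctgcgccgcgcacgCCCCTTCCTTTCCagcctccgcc
Rps28, chr17:33824543-33824602, minus strand: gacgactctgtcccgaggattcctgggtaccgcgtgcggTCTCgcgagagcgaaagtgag
Rpl5, chr5:107900488-107900547, plus strand: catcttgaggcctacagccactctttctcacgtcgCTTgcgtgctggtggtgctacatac
Rpl38, chr11:114668540-114668599, plus strand: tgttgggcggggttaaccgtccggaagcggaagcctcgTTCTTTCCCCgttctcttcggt
Rps6, chr4:86857348-86857407, minus strand: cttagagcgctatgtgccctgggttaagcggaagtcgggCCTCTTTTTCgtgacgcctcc

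A run of at least 8 pyrimidines within 3 bases of the start was found in 11 of the 43 core members with a promoter in the table (25.6%), against 7.80% of all protein-coding promoters. It was present in 4 of the 14 higher members with a promoter and in 2 of the 8 lower ones. Of the lines above it stands in that for Rps10 (13 bases) and in those for Rpl38 and Rps6 (10 bases each), and the other 5 have stretches of 3 to 7 bases. The letters CCGGAAGT, a motif of ETS factors, searched on both strands of the 300 promoter bases, were in 7 core promoters (16.3%, against 5.29% of all), 3 of them in higher and 1 in lower members. The letters AAGATGGC, a motif of YY1, were in 1 (2.33%, against 3.22%). A match describes letters only. The 11 core members without a promoter in the table include Rpl36 and Rpl8.

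Rpl37a, a zinc-binding protein of the large subunit, had the largest difference. At number 1 it read 9.85 for mTERT KO, 9.87 for mTERT WT, 9.93 for mTR KO and 9.81 for mTR WT, against a lowest, median and highest value of 8.51, 8.65 and 8.80 in the 8 other arrays. The values do not overlap, and the gap within a group was 1.14 to 1.30. The log2 difference was 1.21 (SE 0.059, adjusted p = 2.98e-07 by limma), which is 2.31-fold.

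Rpl41, the smallest ribosomal protein, a short basic peptide, measured 11.26, 11.38, 11.37 and 11.18 at number 1, with the groups in that order, against 10.31, 10.48 and 10.65 (lowest, median, highest) elsewhere. Its log2 difference was 0.82 (SE 0.074, adjusted p = 1.85e-05). The 3 probe sets of Rpl41 hold the same values within 0.01, so they add nothing to each other. Rpl36 measured 10.27, 10.30, 10.33 and 10.24 in the same 4 arrays against 9.33, 9.58 and 9.75 elsewhere, a difference of 0.73 (SE 0.067, adjusted p = 2.15e-05). For both genes every array numbered 1 was above every other array.

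In the small subunit, Rps21 (difference 0.71, SE 0.081), Rps10 (0.70, SE 0.072) and Rps28 (0.67, SE 0.088) were higher. Rps10, which lies in the head of the subunit and is another Diamond-Blackfan gene, measured 9.64, 9.55, 9.69 and 9.47 in the 4 arrays numbered 1 against 8.70, 8.93 and 9.06 (lowest, median, highest) in the others. Rps21 measured 8.80, 8.88, 8.90 and 8.72 against 7.93, 8.10 and 8.43. None of these ranges overlap. Large-subunit members Rpl10a (0.62, SE 0.065) and Rpl28 (0.55, SE 0.056) followed.

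In the stalk, which engages elongation factors, Rplp0, its base, was higher by 0.44 (SE 0.066, adjusted p = 4.62e-04 by limma). Its partners were not called: Rplp1 differed by 0.05 (SE 0.073) and Rplp2 by 0.29 (SE 0.11, adjusted p = 0.064 by limma). The probe set of Rplp2 lists no RefSeq mRNA. Rpsa, also known as a laminin receptor, was higher by 0.33 (SE 0.072), and Rpl23a, at the mouth of the exit tunnel, by 0.43 (SE 0.073). Rps14, the gene of the 5q deletion syndrome, was higher by 0.38 (SE 0.076). Rpl10, which joins the large subunit last, was higher by 0.34 (SE 0.057). These 4 had a call in 23 to 26 of the 27 settings. Rps3, at the mRNA entry, was higher by 0.16 with an adjusted p of 0.0498, and this call was lost in 22 of the 27 alternative settings. The other higher members were Rps29, Rpl26, Rpl29, Rps15a, Rpl27a and Rps20, with differences between 0.24 and 0.33 (of these the calls for Rps15a and Rps20 were lost in 14 and 15 of the 27 settings), and the near copy Rps27l, a p53-responsive relative of Rps27, with 0.47.

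**Figure D3:**
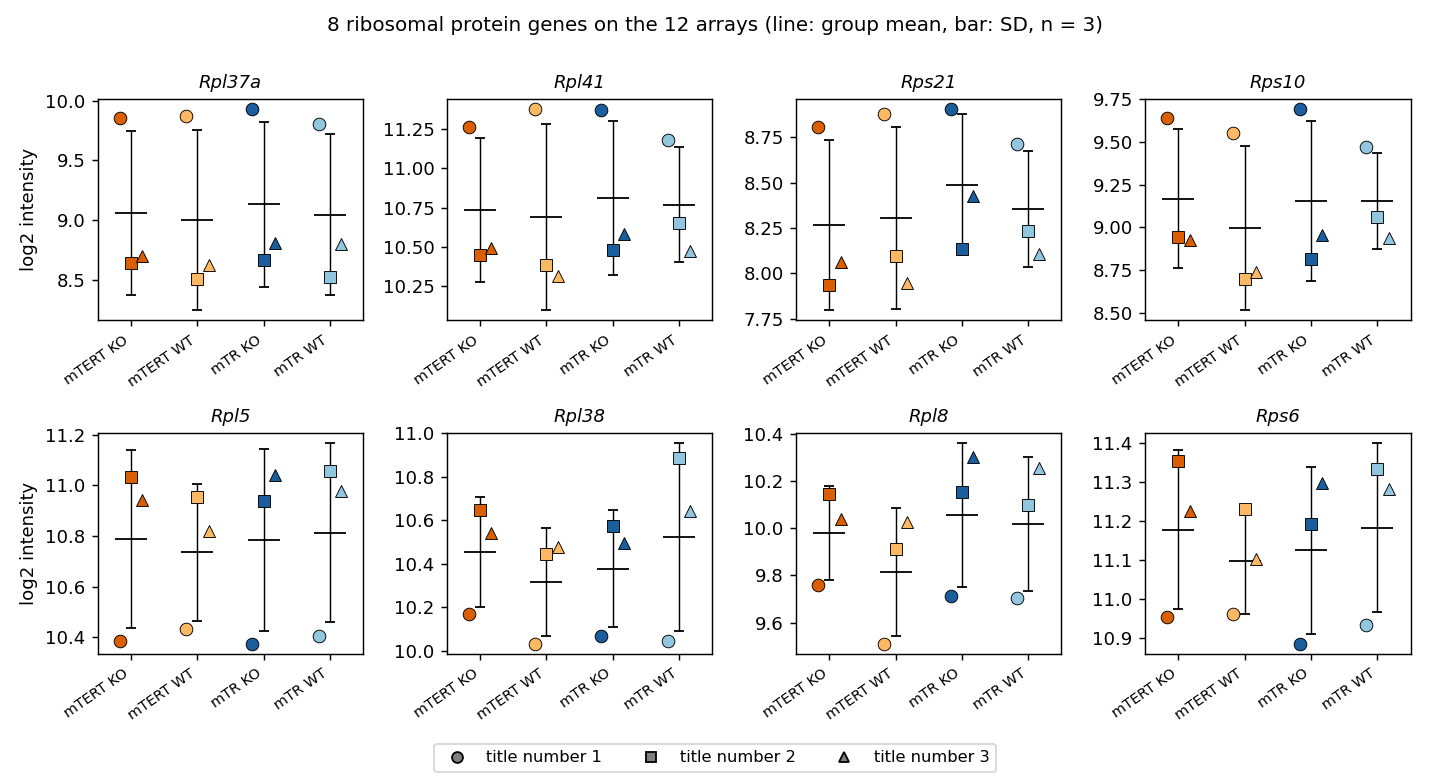
Log2 intensity (vertical axis, a separate scale in each panel) of 8 members in the 4 groups; circles, squares and triangles are title numbers 1, 2 and 3, the horizontal line is the group mean and the bar its SD (n = 3). The circle is the highest point of each group for Rpl37a, Rpl41, Rps21 and Rps10, and the lowest for Rpl5, Rpl38, Rpl8 and Rps6, while the group means lie close together.

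Rpl5, which carries 5S ribosomal RNA into the large subunit and binds MDM2, had the largest difference among the core members that were lower. It measured 10.38, 10.43, 10.37 and 10.41 at number 1 in the groups as ordered above, against 10.82, 10.97 and 11.06 (lowest, median, highest) in the other 8 arrays. The ranges do not overlap. The log2 difference was -0.57 (SE 0.061, adjusted p = 5.50e-05 by limma), and all 5 probe sets of Rpl5 passed, with differences between -0.95 and -0.56.

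Rpl38, known for its part in translation of Hox mRNAs in the embryo, measured 10.17, 10.03, 10.07 and 10.05 against 10.44, 10.56 and 10.88, a difference of -0.51 (SE 0.069, adjusted p = 2.47e-04). Rpl8, beside the peptidyl transferase centre, measured 9.76, 9.51, 9.71 and 9.70 against 9.91, 10.12 and 10.30, a difference of -0.44 (SE 0.063, adjusted p = 3.29e-04). Rps6, the substrate of S6 kinase downstream of mTORC1, measured 10.95, 10.96, 10.88 and 10.93 against 11.10, 11.26 and 11.35, a difference of -0.32 (SE 0.062, adjusted p = 0.0021). Numbered-1 arrays were below all others for each of these genes. The call for Rps6 rests on 1 of its 8 probe sets, since the other 7 differed by -0.15 to -0.01 without passing. Rps7, Rpl27, Rpl23, Rpl21 and Rpl24 were lower by 0.16 to 0.29. The call for Rpl24 (-0.16, adjusted p = 0.047 by limma) was lost in 21 of the 27 settings, and those for Rpl23, Rpl21 and Rpl27 in 13, 14 and 14. Of their probe sets, 9 of 9 passed as lower for Rpl21 (-0.62 to -0.18) and 2 of 2 for Rpl23. For Rpl27 it was 3 of 4 (3 of them distinct) and for Rpl24 1 of 3.

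Among the near copies, Rpl10l, an intronless copy of Rpl10 known from testis, was lower by 0.42 (SE 0.082, adjusted p = 0.0023), while Rpl10 itself was higher. Its level, 4.81 to 5.47, is close to background. Rps23rg1, not counted among the near copies, was lower by 0.81 (SE 0.20, adjusted p = 0.0077 by limma), the largest of the lower differences. Its values overlap, from 4.13 to 5.15 at number 1 against 4.44 to 5.97 elsewhere. The near copies Rpl7l1, Rpl32l, Rpl39l and Rps4l were not called. Ribosomal protein genes have many processed pseudogenes, and whether a probe set also reads copies was not tested.

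The choice of probe set changed some members. Of the 218 tested member probe sets, 85 were higher and 42 lower (58.3% called). Of the 219 in the file, 207 were distinct within 0.01 on all arrays. Of 39 members with several, 24 had all of them on 1 side of 0. In Rpl9, Rps12 and Rps2, 1 probe set passed in each direction. Rps2 is among the 12 lower members by its brightest probe set alone (-0.29), while another was higher by 0.24, so the array gives it no direction as a gene. The brightest probe sets of Rpl9 and Rps12 were not called. Other members not called by their brightest probe set also had called ones. Rps15 (0.03) had 2 of 3 higher, up to 1.01, and Rpl13, Rpl7a and Rps13 had 1 higher each. Rps9 (0.04) had 1 lower, at -0.55, and Rps4x (0.10) had 2 lower, down to -0.45. Rpl19 had 2 lower and Rps25 had 3. With the mean of a member's probe sets in place of the brightest, 29 members were called, 21 higher and 8 lower.

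**Figure D4:**
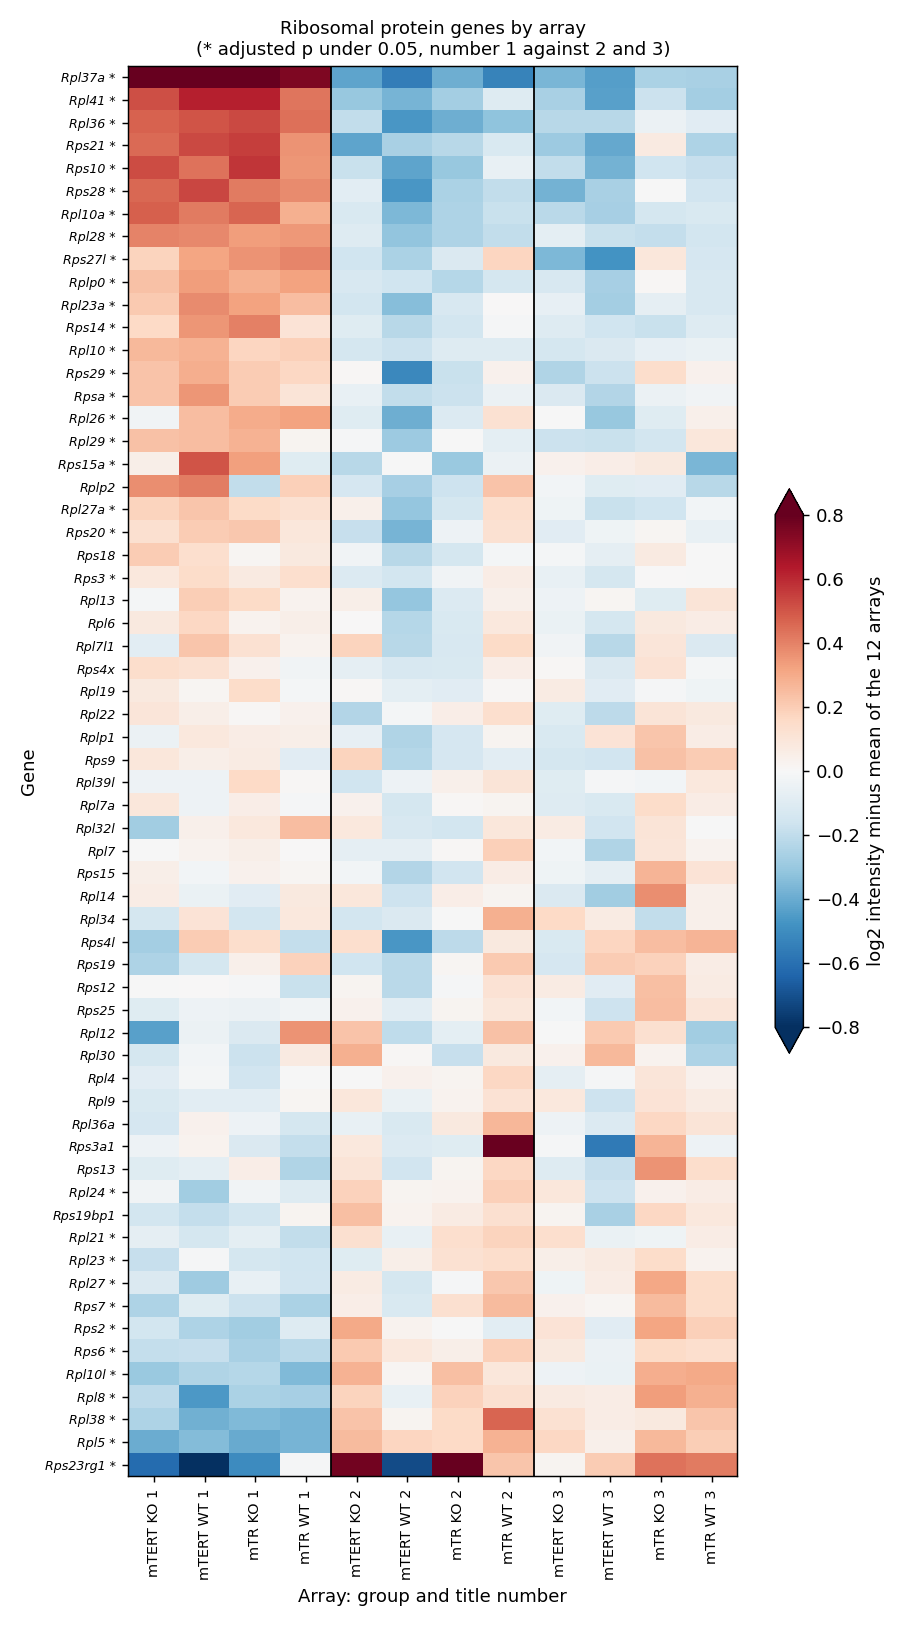
Log2 intensity of each tested member (rows, ordered by the difference between numbers) minus its mean over the 12 arrays, in the 12 arrays (columns, grouped by title number 1, 2 and 3); red is above and blue below the gene's mean, and colours saturate at 0.8. Arrays numbered 1 share red at the top and blue at the bottom in all 4 groups. Arrays numbered 2 and 3 mostly show the reverse in weaker colours, since each gene is centred on its mean over the 12 arrays.

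The comparison was repeated within each line and genotype, with the 6 arrays of each. Within the mTERT line 19 members were called (30.6%, background 18.6%), within the mTR line 19 (30.6%, background 23.2%), within KO arrays 16 (25.8%, background 17.2%) and within WT arrays 14 (22.6%, background 12.1%). The lines share no array, and neither do the genotypes. All 19 members called within the mTERT line had the same sign within the mTR line, against 96% of all probe sets called there, and all 19 called within the mTR line had the same sign within the mTERT line, against 95.7%. All 16 called within KO arrays had the same sign within WT arrays, against 97.7% of all probe sets called there. The agreement was thus nearly as high over the whole array.

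The arrays with pancreatic transcripts include 3 of the 4 numbered 1. Without the 5 such arrays, mTR WT 1 remains as the lone array numbered 1, and only Rpl37a was called (1.05, adjusted p = 0.0055 by limma, which takes the lone array to vary as the rest), 1.61% of the members against 2.92% of all probe sets. Rpl29, called higher over all arrays, was at -0.14 there. Without the 2 arrays with muscle transcripts 22 members were called (35.5%, background 30.3%). Leaving out any 1 array gave 23 to 30. Endothelial genes were lower at number 1 in the mTERT line. They stood at 7.24 in mTERT KO 1 and 7.26 in mTERT WT 1, against 7.44 to 7.73 in that line's other 4 arrays. A smaller gap of the same sign was seen for mTR KO, 7.31 at number 1 against 7.40 and 7.38. The mTR WT 1 liver, at 7.44, lay between its group's other values, 7.33 and 7.49. The part of other cell types in these differences was not tested.

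No member was called between arrays numbered 2 and 3 (background 0.0%, 1406 probe sets with an unadjusted p under 0.05). Rpl36 had the smallest p among the members, at -0.20 for number 2 minus number 3 (SE 0.078, adjusted p = 0.70 by limma). Rpl37a was at -0.15 (SE 0.069), Rplp1 at -0.17 (SE 0.084), and Rps3a1, Rpl24 and Rps19bp1 were at 0.25 (SE 0.19), 0.10 (SE 0.068) and 0.11 (SE 0.083). The median was -0.02.

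Each snoRNA measured within a member's gene differed by more than the brightest probe set of that member. Other probe sets of Rpsa reached 0.76, above its Snora62 (0.68), and those of Rps12 reached 0.37, above its Snora33 (0.22). The RefSeq spans of 20 members hold 39 snoRNAs (by position, strand not compared), and 12 of these, in 10 host genes, had a tested probe set. Of the 12, 11 were higher at number 1 and none was lower. Snord16a measured 10.24, 10.57, 10.47 and 9.60 in the 4 arrays numbered 1 and at most 6.66 in any other array, a log2 difference of 4.08 (SE 0.23, adjusted p = 7.54e-07 by limma), while its host Rpl4 differed by -0.10 (SE 0.060). Snord15b differed by 2.94 (SE 0.12) and its host Rps3 by 0.16. Snora21 measured 4.64 to 5.05 at number 1 and stood under the background level in all 8 other arrays, which gives a bound of at least 1.48-fold higher (background level in place of the other arrays), while its host Rpl23 was lower by 0.18 (SE 0.062). For Snord73a, likewise under background in the other 8 arrays, the bound was at least 1.23-fold. The exception was Snora33, in Rps12, at 0.22 (SE 0.10, adjusted p = 0.11).

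**Figure D5:**
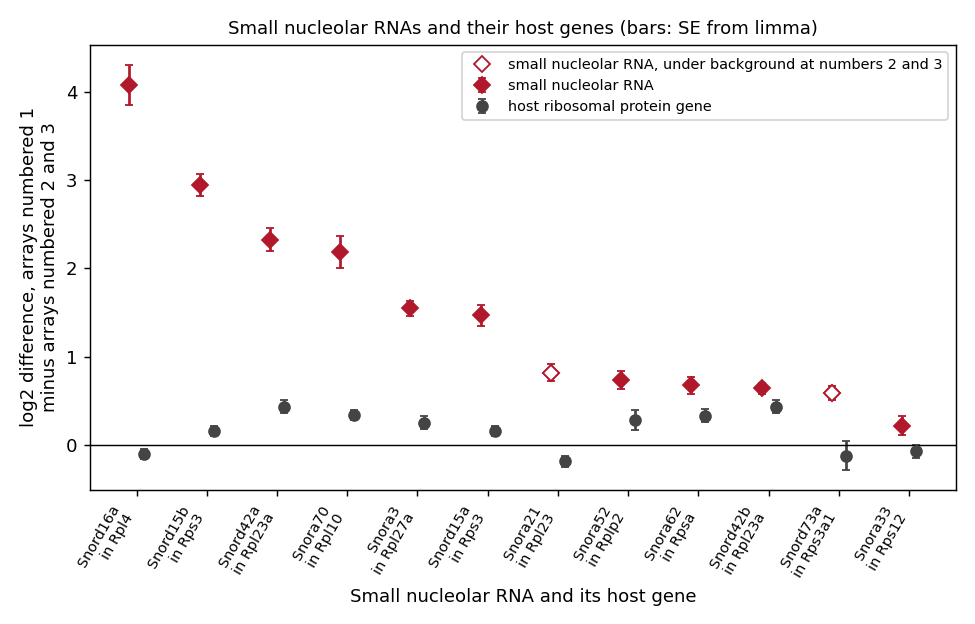
Log2 difference between arrays numbered 1 and arrays numbered 2 and 3 (vertical axis) for 12 snoRNAs (diamonds, open where all arrays numbered 2 and 3 lie under the background level, so that the size is not exact) and the ribosomal protein gene whose span holds each (circles), with the SE from limma as bars. Every diamond lies above its circle, from 0.22 for Snora33 to 4.08 for Snord16a.

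This was not particular to snoRNAs in ribosomal protein genes: 45 of all 49 snoRNA genes tested (91.8%) were higher at number 1 and none was lower, with a median of 1.14. Carrying a snoRNA did not separate the members' own values in 1 direction. Host members had 6 higher and 4 lower of 20 core genes tested, with a median of -0.02, and the other 34 had 14 higher and 6 lower, with a median of 0.08. No test of that difference was made.

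Other gene lists, of translation, ribosome assembly, protein breakdown and the mitochondrial ribosome, were called at number 1 as follows, against a background of 17.5% higher and 21.3% lower. A list of translation genes and others whose transcripts begin with the pyrimidine tract had 4 higher (22.2%) and 5 lower (27.8%) of 18. In it, Naca, of the nascent chain complex, was at 0.47 (SE 0.070) and Eif3h, an initiation factor subunit, at -0.33 (SE 0.064). Ribosome biogenesis genes had 9 higher (31.0%) and 5 lower (17.2%) of 29, with Nop10, an H/ACA snoRNP protein, at 0.61 (SE 0.072), and Ncl, nucleolin, and Dkc1, dyskerin, which also binds the telomerase RNA, at -0.83 (SE 0.061) and -0.78 (SE 0.071). RNA polymerase I and its factors had 4 higher (23.5%) and 5 lower (29.4%) of 17, and the proteasome 7 (22.6%) and 6 (19.4%) of 31. Regulators of mTORC1 and of the tract had 6 higher (30.0%) and 1 lower (5.0%) of 20, and mitochondrial ribosomal proteins 10 (13.0%) and 17 (22.1%) of 77. None of these shares was tested against the background. Gas5 (0.61, SE 0.067) and Rnu12 (0.99, SE 0.11), of 3 non-coding snoRNA hosts on the array, were higher. No gene of these lists was called in any KO comparison, between the wild types or between numbers 2 and 3.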

How the data were processed

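Liver RNA of 12 mice was measured on 12 arrays. The values are log2 intensities as the authors deposited them. Tools named in the submitters' processing notes are PLIER, GCOS 1.4 and Affymetrix Expression Console, with no role stated. Values span 2.62 to 13.83, from which base 2 was inferred, and normalization and scale are not given in the sources used here. The file held 28853 probe sets, of which 21789 had 1 gene symbol, 1621 several and 5443 none. A member with several probe sets is represented by the one with the highest mean. Correlation between arrays was 0.970 to 0.996, and the number of arrays limits the precision.

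Tests used limma 3.58.1 in R 4.3.3 (lmFit, eBayes). Group comparisons come from a fit of 4 group means, and comparisons of title numbers from a fit with group and number as terms. The SE and intervals of the group comparisons therefore include the spread between title numbers. Probe sets whose mean reached 3.90, the 30th percentile, were tested, 20197 in all, with Benjamini-Hochberg adjustment over them, two-sided, at 0.05. The scripts were tested on simulated data with 200 changed probe sets. At a log2 change of 0.5, the mTERT KO comparison recovered 0.0% of them and the number 1 comparison 89.5%. At 1.0 they recovered 84.0% and 99.5%. An absent call in a KO comparison therefore does not exclude a change of 0.5. Littermate pairing follows from the design text and the title number. Deviations from group means of same-numbered KO and WT arrays correlated at 0.692, 0.135 and 0.623 (mTERT) and 0.458, 0.151 and 0.552 (mTR). Both KO 2 arrays correlated more with WT 3 (0.416 and 0.464). Arrays of equal number also share the pattern described for number 1, so these correlations cannot check the pairing. With group and number in the fit, the correlation within litters estimated by limma was 0.00428.

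Members and lists were chosen with earlier results of these data known. Genes named are, per comparison, up to 5 per direction by p, members with known special roles, near copies, and members whose probe sets pass in both directions. The remaining members called at number 1 are named as well, chosen after their values were seen. A further part of that rule, by level, was not used, since levels of different probe sets are not compared. Symbols were matched by Entrez identifier (63 of 63 members). RefSeq spans carry no strand here. Alternatives covered normalization, filter, eBayes settings, array weights, probe sets, litter blocks and left-out arrays. Leaving out the 2 arrays with muscle transcripts was chosen after seeing the data.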

Additional observations from a re-analysis of the deposited data

Results flagged for a closer look

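By its brightest probe set, Rpl28, a large-subunit protein, had KO effects of opposite sign in the lines in every litter. In each of its other probe sets mTR KO 1 lay slightly above mTR WT 1, in the dimmest at 10.32 against 10.28. The sign of the mTR effect in litter 1 thus depended on the probe set. The values that follow are those of the brightest probe set. mTR KO minus WT was -0.01, -0.05 and -0.04 in litters 1, 2 and 3, and mTERT KO minus WT was 0.01, 0.21 and 0.10. The mTR KO effect minus the mTERT KO effect was -0.14 (SE 0.33), and the limma test of that difference gave an adjusted p of 1.00.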

How the results depend on the processing

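In the comparisons of KO, of wild types and of numbers 2 and 3, no member was called under any alternative run, with litter as a replicate block included (0 called). The medians with that block were unchanged to 2 decimals, which the balanced design fixes in advance. For number 1, the random replicate block gave 32 called. Leaving out 1 array gave 23 to 30 called there and medians of 0.005 to 0.075. The count was 1 without the 5 pancreas arrays, 19 within the mTERT line, 19 within the mTR line, 16 within KO arrays and 14 within WT arrays, which hold fewer arrays, and the median within the mTERT line was 0.118. Leaving out 1 array moved the median of the mTERT KO effect between -0.013 (without mTERT WT 2) and 0.146, of the mTR KO effect between -0.047 and 0.035, of their mean between -0.017 and 0.066, of their difference between -0.154 (without mTERT WT 1) and -0.021, of mTR WT against mTERT WT between 0.054 and 0.194, and of number 2 against 3 between -0.050 and 0.013. Without the 2 muscle arrays the difference was -0.171 and the wild-type median 0.219, and without the 4 arrays numbered 1 the wild-type median was 0.198. No cause was tested. Of the named genes' values, 11 changed sign, 1 of them of a called member: Rpl29 at number 1 was -0.144 without the pancreas arrays, and the other 32 called members kept their sign in all 27 alternatives. Not called were Rps19 in mTERT KO against WT (0.033 without the muscle arrays), Rps12 (-0.011 without mTR KO 3, -0.018 without mTR WT 1, range up to 0.129) and Rps13 (-0.0087 without mTR WT 1, range up to 0.193) in mTR KO against WT, Rpl4 in the mean effect (0.00932 without the pancreas arrays), Rpl23 between wild types (-0.101 to 0.047 when 1 array was left out, the highest without mTR WT 1, 0.024 without arrays numbered 1), and, for 2 against 3, Rps3a1 (-0.140 without the pancreas arrays and within KO arrays) and Rps19bp1 (-0.029 within the mTR line). With only the groups of a comparison, the mean and difference of the KO effects have no separate fit. Dim members (Rpl12, Rpl39l, Rpl3l) are limited by signal over background.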
